A study of Glycine max with 18 samples.

Results

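The 200 genes described here had their highest transcript level in soybean leaves at ZT36, 12 h after subjective dawn, and a wide range between their highest and lowest time points. They were selected on the measured values of these same 18 libraries. An annotated gene qualified if its TPM, summed over lines of the same identifier and averaged over the replicates, was at least 1 at a time point, if ZT36 was its highest time point in each of replicates L, M and R, and if the 6 time-point means of log2(TPM + 1) spanned at least 2. Of 55589 annotated genes, 24620 had a mean of at least 1 TPM at a time point and are called expressed here. Of these, 534 met the rule and the 200 with the largest range were taken as members. TPM, a transcript abundance, scales a gene's reads to its length and to the library. In these files the assembled loci alone sum to 1000000 TPM in each library and the annotated genes are listed on top of them, so a gene's TPM is not its share of a fixed total and levels are comparable between libraries only as far as that scaling holds. The time courses of the members are therefore a description of what the rule chose, and no test is attached to them.

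The libraries were made from the first trifoliate leaf of *Glycine max* Williams 82 (Ws82), the wild type, with 3 libraries (L, M and R) at each of 6 time points 4 h apart, ZT24, ZT28, ZT32, ZT36, ZT40 and ZT44, which the labels count as 0, 4, 8, 12, 16 and 20 h. All plants were in constant light, and none of the groups was kept in the dark, so day and night below are subjective. Before constant light at 25 °C, the labels give 18 d of growth in short days (light for 8 h at 24 °C, dark for 16 h at 22 °C), so that ZT36 falls 4 h after the time of the earlier dusk. The series text gives 14 d in days of 12 h light and 12 h dark instead, which would place ZT36 at dusk. L, M and R are described as independent biological replicates, each experiment using 3 plants, and the extraction text speaks of rice. The single leaf stage and the single day limit the series as a model of a rhythm, because 20 h are less than 1 cycle and a repeat of the peak could not be seen.

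A plant circadian clock is a network of transcriptional regulators that repress and activate one another over the day. In *Arabidopsis*, MYB factors such as LHY peak near dawn and repress genes that carry the evening element in their promoters, and those genes, among them components of the evening complex and TOC1, reach their maximum in the evening. Such evening genes are known to keep a rhythm in constant light, where no change of light marks the day. The deposited files do not pair gene identifiers with names, and the reference table at hand, which belongs to another assembly, listed 0 of the identifiers, so the functions of the 200 members are not described. None of the 8 genes that the study's accession list pairs with an identifier was a member. One of them, *GmLUX2*, met the rule and ranked 171 by range, but the rule leaves it out together with 8 other genes, 3 of which also met it.

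Depth and quality of the libraries bear on all values below. Coverage divided by FPKM gave 3.11 to 7.24 Gb of aligned sequence per library, with ZT44 the shallowest at 3.11 to 3.53 Gb. Relative to that sum over the assembled loci, gene TPM was lowest in ZT32 R, at 51.3%, and highest in ZT40 M, at 78.6%, and came to 56.2%, 69.4% and 65.5% in ZT36 L, M and R. ZT32 R also listed 227701 assembled loci without a strand, against at most 35008 in any other library. Over the expressed genes, r between replicates was 0.913 to 0.985, and no libraries were identical. The leaf label was not checked against marker genes, since the sources used here pair none with an identifier. In whole leaves, fewer cells of a type and less RNA per cell cannot be told apart.

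The median of the members' mean TPM was 3.80 at ZT24, then 1.50 at ZT28 and 2.69 at ZT32. It stood at 22.8 at ZT36, and was back at 10.1 by ZT40 and 4.27 by ZT44. In these medians the step from ZT32 to ZT36 was larger than the step from ZT36 to ZT40. The size of both depends on how the libraries are scaled, as given below. The lowest member reached 6.55 TPM at ZT36 and the highest 1292 TPM. Between these, 18 members had at least 100 TPM at ZT36 and 22 had less than 10. Summed over the 200 members, ZT24 libraries had 1953 ± 283 TPM, ZT28 libraries 783 ± 230, ZT32 libraries 2220 ± 1061, ZT36 libraries 9922 ± 1161, ZT40 libraries 3997 ± 947 and ZT44 libraries 1859 ± 141 (SD, n = 3 each). As a share of all gene TPM this was 1.56% ± 0.0721 at ZT36 and 0.112% ± 0.0311 at the lowest time point, ZT28. The share was steadier between the ZT36 libraries than the sum, at 1.59%, 1.61% and 1.48% in L, M and R.

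**Figure D1:**
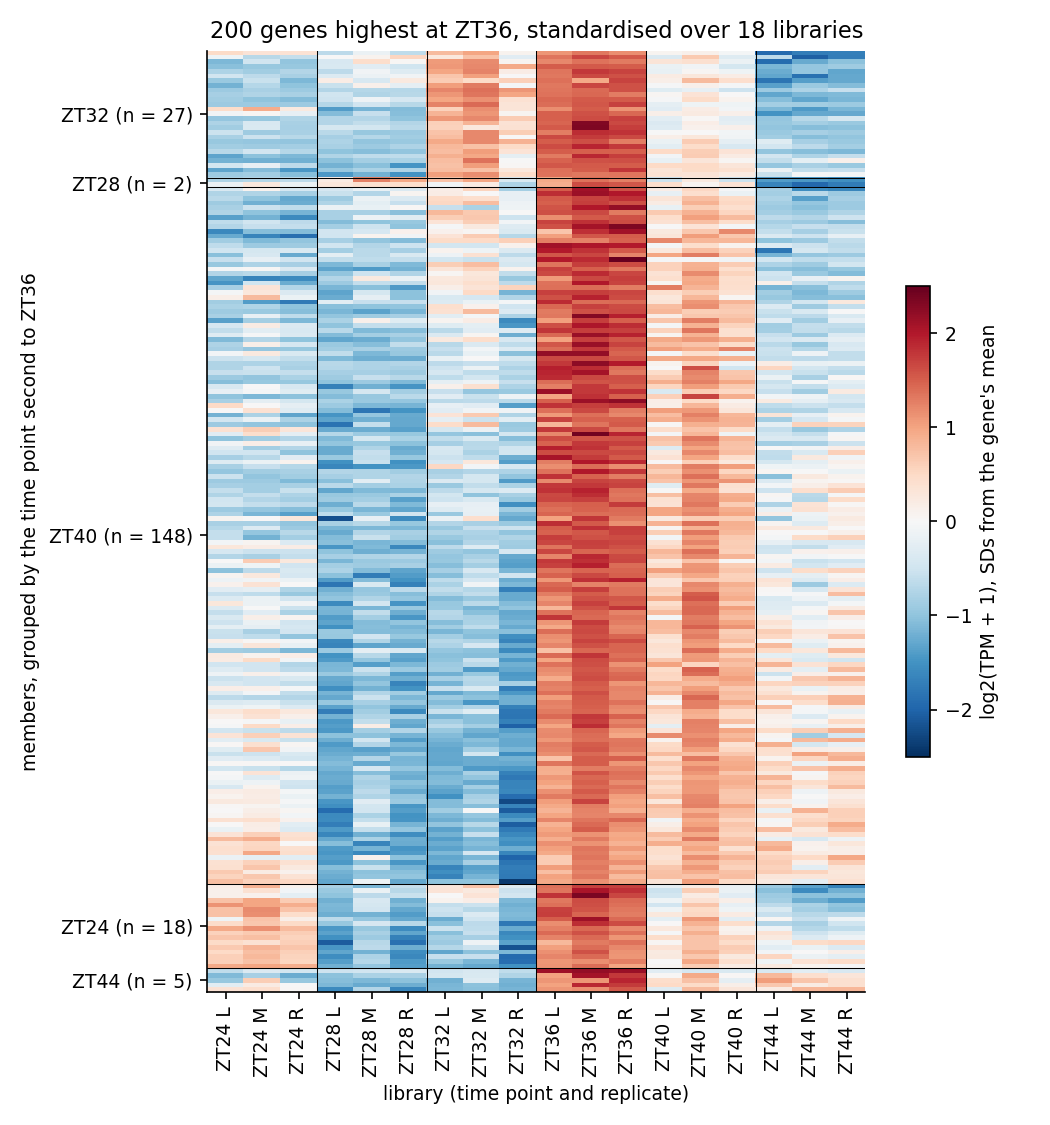
Each row is 1 of the 200 members and each column 1 of the 18 libraries, and the colour gives log2(TPM + 1) in SDs from the gene's own mean. Rows are grouped by the time point with the second highest mean, and the columns of ZT36 are the reddest in every group, as the rule requires, and 148 of the 200 rows have ZT40 second.

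The range between the highest and lowest time-point means ran from 2.73 to 6.91 on the log2 scale, with a median of 3.26. It was at least 3 in 144 members, at least 4 in 39 and at least 5 in 14. The end of the list is not a natural break. The 5 members just inside it had ranges of 2.73 to 2.74 and the 5 genes just outside 2.71 to 2.72, with 7.64 to 36.4 TPM at ZT36 inside and 10.3 to 33.6 TPM outside. A mean of at least 1 TPM at every time point was found in 109 members, and the rest fell below it at some time point. At ZT36 alone, that mean was reached by 2 members. In all 18 libraries, 71 members had at least 1 TPM. Only 5 members were listed at 0 in any library, and none of them in a ZT36 library.

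The member with the widest range, Glyma.19G102400, lies on the minus strand of chromosome 19 of Gmax_Wm82_a2_v1 from 35035772 to 35037104. In L, M and R it had 19.6, 30.9 and 13.8 TPM at ZT24, while the ZT28 libraries had 4.84, 6.43 and 2.55 TPM and the ZT32 libraries 161, 278 and 47.6 TPM. The ZT36 libraries had 663, 649 and 618 TPM, the ZT40 libraries 106, 106 and 76.7 TPM, and the ZT44 libraries 7.40, 10.3 and 8.16 TPM. The ZT36 libraries were the most uniform, and none of them overlapped any other library, whereas the ZT32 libraries spread widely with ZT32 R the lowest. The mean was 643 ± 23.1 TPM at ZT36 and 4.61 ± 1.95 TPM at ZT28 (SD, n = 3), a range of 6.91 on the log2 scale. ZT32 was its second highest time point.

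The second in range, Glyma.16G049000, lies on the plus strand of chromosome 16 from 4700707 to 4702962 and was also the member with the highest level. In L, M and R the ZT24 libraries had 138, 165 and 118 TPM, the ZT28 libraries 33.7, 69.4 and 34.6 TPM, and the ZT32 libraries 515, 730 and 169 TPM. The ZT36 libraries had 1261, 1444 and 1171 TPM, the ZT40 libraries 189, 212 and 186 TPM, and the ZT44 libraries 18.3, 24.8 and 24.8 TPM. The 3 ZT36 libraries again lay above all others, ZT32 M coming closest, and the lowest mean fell at ZT44, 8 h after the peak. Its range was 5.78. Together both genes held 28.5% of the summed TPM of the 200 members at ZT32, 19.5% at ZT36 and 1.68% at ZT44.

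**Figure D2:**
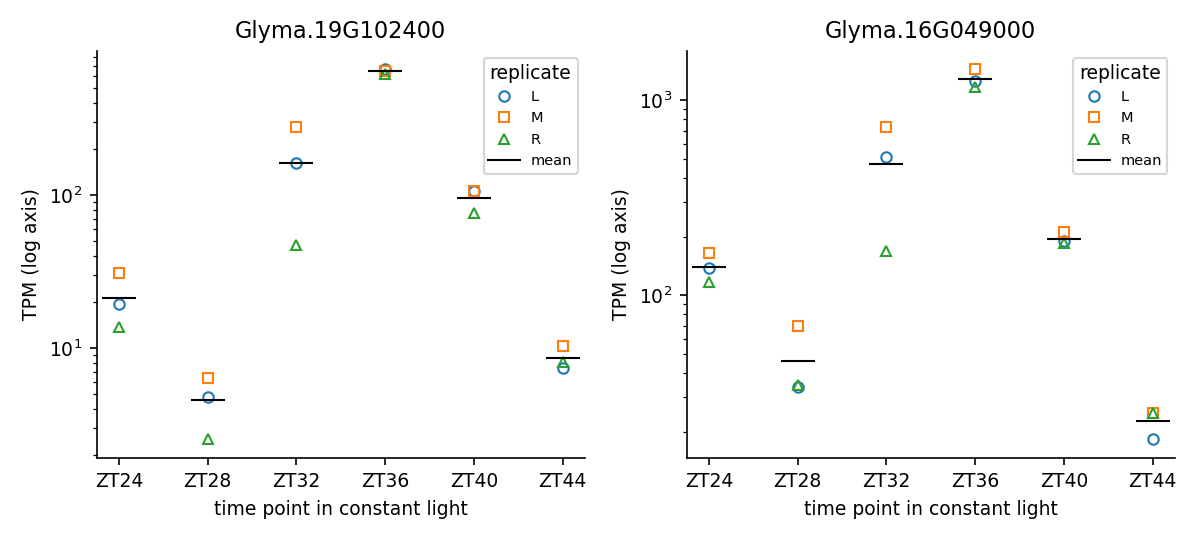
TPM on a log axis of the 2 members with the largest range, at each of the 6 time points, with 1 symbol for each replicate and a bar for the mean of 3. Both reach their maximum at ZT36, at 643 and 1292 TPM, after an intermediate level at ZT32 where replicate R is the lowest.

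For most members the time point before the peak was lower than the one after it. ZT36 exceeded ZT32 by a median of 2.79 on the log2 scale, with quartiles of 1.90 and 3.26, and exceeded ZT40 by a median of 1.04, with quartiles of 0.65 and 1.60. In mean TPM the median ratio was 10.5 for ZT36 over ZT32 and 2.13 for ZT36 over ZT40. The difference from ZT32 was the larger in 169 of the 200 members. ZT40 lay above ZT32 in all of L, M and R for 153 members and below it in all for 20. Level differences between whole libraries move with this asymmetry. The median of log2(TPM + 1) over all expressed genes was 1.31 for ZT32, 1.89 for ZT36 and 1.97 for ZT40. With quantile normalization, which removes such differences, the medians were 2.44 from ZT32 and 1.34 from ZT40, and the difference from ZT32 was the larger in 151 members. The part of these level differences in the asymmetry was not tested.

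**Figure D3:**
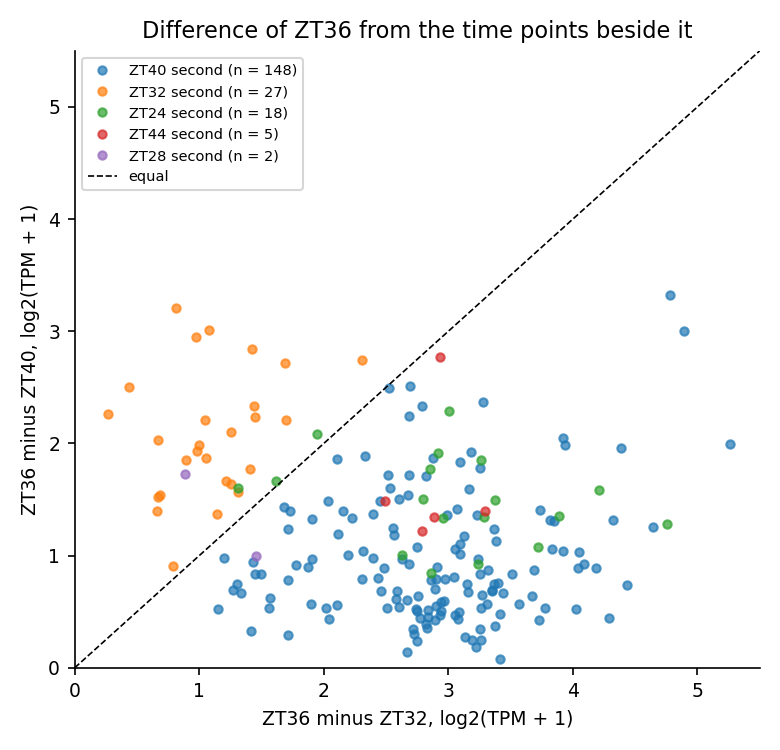
Each point is a member, with the difference of ZT36 from ZT32 on the x axis and from ZT40 on the y axis, both in log2(TPM + 1), and the colour gives the time point with the second highest mean. Most points, 169 of 200, lie below the dashed line of equal differences, and those above it are mainly the members with ZT32 second.

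The second highest time point divided the members into several shapes. It was ZT40 in 148 members, ZT32 in 27, ZT24 in 18, ZT44 in 5 and ZT28 in 2. The same second time point was found in each of L, M and R for 96 of the 148 with ZT40, 17 of the 27 with ZT32 and 8 of the 18 with ZT24. With quantile normalization, ZT40 was second in 109 members, ZT32 in 47 and ZT24 in 27, so the size of the ZT40 group depends on how the libraries are scaled, while it stayed the most frequent. Of all 24620 expressed genes, 8060 were highest at ZT40 and 1301 at ZT32 with TPM. With quantile normalization these numbers were 2803 and 4381. The lowest time point was ZT28 in 89 members, ZT32 in 47, ZT24 in 33 and ZT44 in 31. It was the same in each of L, M and R for 33, 14, 13 and 19 of these, so the lowest time point of most members is uncertain. A cosine of 24 h laid through the 6 means peaked at a median of ZT38.3, with quartiles of ZT36.6 and ZT39.8 and extremes of ZT32.8 and ZT41.6.

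Members with ZT40 second kept a shoulder after the peak. Their median was 1.89 TPM at ZT32, followed by 23.1 TPM at ZT36, 12.3 TPM at ZT40 and 4.82 TPM at ZT44. The widest of them, singled out after its values were seen, lies on chromosome 7 from 37858748 to 37860831, with 5.75 ± 2.09 TPM at ZT32. It averaged 86.3 ± 6.54 TPM in ZT36 libraries, 31.95 ± 1.55 TPM in ZT40 libraries and 2.54 ± 0.135 TPM in ZT44 libraries, and its lowest mean was 0.603 ± 0.170 TPM at ZT28 (SD, n = 3).

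Members with ZT32 second were already high 4 h before the peak. Their median was 2.16 TPM at ZT28 and 10.2 TPM at ZT32, then 20.1 TPM at ZT36, 5.23 TPM at ZT40 and 1.198 TPM at ZT44. Their cosine peaked at a median of ZT35.0, against ZT38.7 for those with ZT40 second. Both genes with the widest range belong here. In 17 of the 27, the lowest time point was ZT44, while among the 148 with ZT40 second it was ZT44 in 8, ZT28 in 74 and ZT32 in 42. This ordering is partly fixed by the grouping itself.

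Members with ZT24 second had a high level at subjective dawn as well as at ZT36. Their median was 15.9 TPM at ZT24, with 1.89 TPM by ZT28 and 3.22 TPM by ZT32, and came to 27.0 TPM at ZT36, 9.01 TPM at ZT40 and 5.19 TPM at ZT44. The widest of them, also chosen after its values were seen, lies on chromosome 13 from 34742116 to 34743394. It averaged 117 ± 18.4 TPM in ZT24 libraries, 9.06 ± 6.06 in ZT28 libraries and 11.5 ± 9.33 in ZT32 libraries, and then 235 ± 61.4 in ZT36 libraries, 95.8 ± 23.8 in ZT40 libraries and 28.9 ± 3.46 in ZT44 libraries (SD, n = 3). Its level at ZT24 lay above those at ZT28 and ZT44. ZT44 precedes ZT24 only if the next day repeats this one, which these data cannot show.

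**Figure D4:**
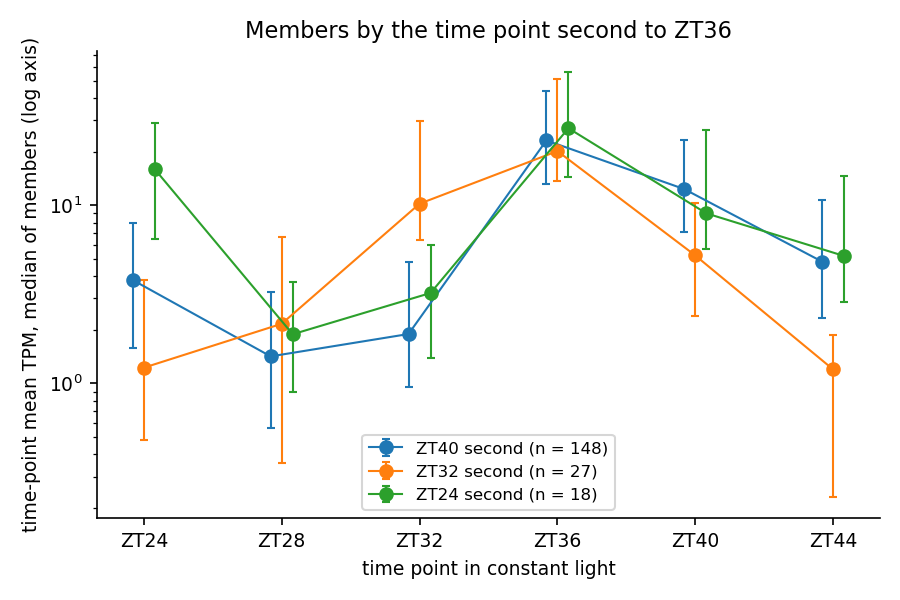
Median over members of the time-point mean TPM, on a log axis, for the 148 members with ZT40, the 27 with ZT32 and the 18 with ZT24 as second highest time point, with bars from the lower to the upper quartile. The 3 groups meet at ZT36, at 23.1, 20.1 and 27.0 TPM, and part at ZT24, ZT32 and ZT44.

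The members most like the group as a whole were those with the highest Pearson r to the mean standardised profile of the 200 over the 18 libraries. The first, on chromosome 2 from 3157712 to 3162381, had r = 0.97 and 0.517 ± 0.0703 TPM at ZT28, 17.8 ± 0.399 at ZT36 and 7.41 ± 3.43 at ZT40. The second, on chromosome 4 from 7821056 to 7827386, had r = 0.97 and 23.2 ± 7.60 TPM at ZT36. The third, on chromosome 10 from 50429673 to 50436778, had r = 0.97 and 10.9 ± 4.19 TPM at ZT36. All 3 are of moderate level and middle range, at ranks 60, 61 and 133. Between any pair of members, r over the libraries had a median of 0.76 and quartiles of 0.59 and 0.86. The members share these libraries and were chosen for the same peak.

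Replicates differed in ways that matter for these genes. The CV of the 3 ZT36 libraries had a median of 18.9% over the members, with quartiles of 13.3% and 26.2%. ZT36 M was the highest of the 3 in 141 members (70.5%) and in 65.3% of all expressed genes. ZT40 M was the highest of its 3 in 177 members (88.5%), against 55.6% of all expressed genes, and its gene TPM was the highest of the 18 libraries. Without this library, ZT40 was second in 64.5% of the members, against 74.0% with it. The lowest ZT36 library lay above all 15 other libraries in 138 members, beside 3.85% of the expressed genes, a contrast that the rule used and from which nothing is read. In the 62 others, the highest library outside ZT36 was ZT40 M in 50, and without ZT40 M the ZT36 libraries stood apart in 176 members.

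By the same rule, and without leaving genes out, the maximum was at ZT24 for 297 genes, at ZT28 for 211, at ZT32 for 79, at ZT40 for 179 and at ZT44 for 280, beside the 534 for ZT36. These numbers moved with the scaling. Quantile normalization gave 242 genes for ZT24, 276 for ZT28, 314 for ZT32, 381 for ZT36, 62 for ZT40 and 316 for ZT44, and 332 of the ZT36 genes were the same under both. ZT36 had the most genes under both scalings, although the order of the others changed and the differences were not tested. Over all 24620 expressed genes, the mean was highest at ZT36 in 7971 with TPM and in 6455 with quantile normalization. With TPM, more of them, 8060, were highest at ZT40. The lead of ZT36 is therefore not read as a trait of wide-range genes. Among the 200 widest of ZT36, the step from the time point before was larger than the step to the time point after, at medians of 2.79 and 1.04, and the same order held for the 200 widest of ZT44, at 1.40 and 0.91, with ZT24 taken as the time point after. The order was the other way round in the remaining groups, at 1.11 and 1.70 for ZT24 (with ZT44 taken as the time point before), 1.23 and 1.34 for ZT28, 1.19 and 1.64 for ZT32 and 0.68 and 0.99 for ZT40. These differences between the groups were not tested.

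Members were found on all 20 chromosomes, from 18 of 1748 expressed genes on chromosome 8 to 3 of 1215 on chromosome 17. This corresponded to 0.247 members per 100 expressed genes on chromosome 17, 1.26 on chromosome 7 and 0.812 overall. The members span 284 to 20346 bp with a median of 3129 bp, introns included, and 103 lie on the plus strand. In 12 cases, 2 members were direct neighbours among expressed genes, which involved 24 members, and 7 of these pairs lay within 10 kb. Whether this exceeds the number among other genes was not tested.

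The pair with the largest range lies on the plus strand of chromosome 6, from 10070322 to 10072155 and from 10070358 to 10075347. The models overlap by 1798 bp, so that the division of reads between them is uncertain. The first had 57.0 ± 28.4 TPM in ZT32 libraries, 140 ± 11.5 TPM in ZT36 libraries and 19.6 ± 8.32 TPM in ZT40 libraries, and the second 24.3 ± 12.1, 99.0 ± 13.6 and 27.9 ± 11.4 TPM at the same times. The next pair, on the minus strand of chromosome 13 from 35214080 to 35214492 and from 35214559 to 35215040, is separated by 66 bp. Its genes had 18.9 ± 4.77 and 111 ± 31.9 TPM at ZT36, with r = 0.97 between them over the libraries. The third, on the minus strand of chromosome 14 from 10260321 to 10263053 and from 10336670 to 10338523, is 73616 bp apart. Its genes had 19.4 ± 0.930 and 43.9 ± 3.82 TPM at ZT36, against 0.344 ± 0.231 and 1.16 ± 0.235 TPM at ZT32. Over all 12 pairs r had a median of 0.96 and ran from 0.46 to 0.98. The models overlap in 2 pairs. The highest r belongs to 1 of these, on chromosome 2 with an overlap of 1669 bp, where the division of reads is uncertain too. The second highest time point was shared by 10 pairs. ZT40 was second in 74.0% of all members, so many pairs share it in any case.

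The genes beside the members were taken by position, members left out. The rule had screened every expressed gene on its ZT36 values, these included, so the values below are not independent of it and are given as counts beside those of all genes. ZT36 was compared with the mean of the 5 other time points by limma's moderated test on log2(TPM + 1) of all 18 libraries, with Benjamini-Hochberg adjustment over 24620 genes. Of the 370 nearest expressed genes on each side, members left out, 151 were higher at ZT36 (40.8%), beside 33.2% of all genes tested and 32.7% of those that are not members, and 33 were lower (8.92%), beside 11.1% of all. Their median difference was 0.34 on the log2 scale, against 0.28 over all genes. All 200 members were higher in this contrast, which the rule used. The shift of all genes depends on the scaling, because 8175 genes were higher and 2721 lower with TPM as deposited, and 5241 were higher and 4170 lower with quantile normalization, where the median over all genes was 0.07. With that scaling 105 of the 370 neighbours were higher (28.4%), beside 21.3% of all genes. The count also rests on ZT36 M, without which 90 neighbours (24.3%) were higher, beside 16.7% of all genes, the members included in both backgrounds.

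Distance and orientation divided the neighbours further. Within 10 kb of a member, 91 of 195 were higher at ZT36 (46.7%) and 12 lower, and farther away 61 of 177 were higher (34.5%) and 21 lower, with 2 genes that lie beside 2 members counted in both. At places 2 to 10 on each side, the percentage higher was between 28.2% and 34.9%. Within 10 kb, 16 of 31 neighbours in divergent orientation, 34 of 64 in convergent orientation and 42 of 101 on the same strand were higher, with 1 gene counted in 2 orientations. Only 10 neighbours overlapped the member itself, and 6 of these were higher. Of the 370, 12 met the rule for ZT36 with a range too small for the 200 (3.24%), beside 1.37% of the expressed genes that are not members. These are counts beside a background, and the difference between neighbours and other genes was not tested.

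**Figure D5:**
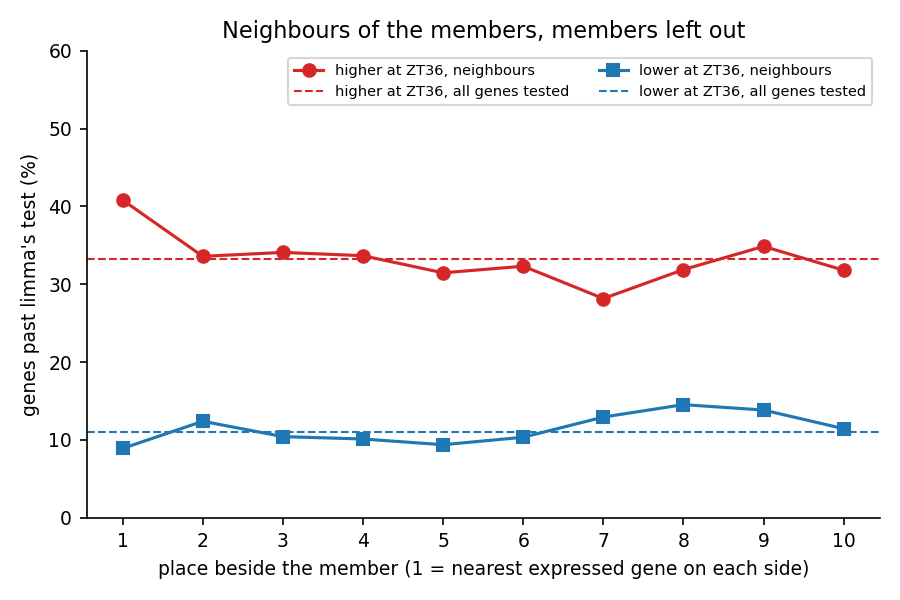
Percentage of genes past limma's test at places 1 to 10 on each side of a member, higher (circles) or lower (squares) at ZT36, with dashed lines for all 24620 genes tested. The nearest genes stand at 40.8% higher, and those from the second place on lie between 28.2% and 34.9%, around the line at 33.2%.

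Some neighbours ran against the members. The 2 with the largest fall at ZT36 were chosen after their values were seen. Glyma.10G261000, on the minus strand of chromosome 10 from 48626147 to 48627737, lies 12041 bp from a member in divergent orientation. It had 0.780, 1.28 and 0.750 TPM at ZT36 in L, M and R, against means of 40.5 ± 7.39 TPM for ZT24, 60.1 ± 42.4 TPM for ZT28, 6.62 ± 3.82 TPM for ZT32, 19.8 ± 6.77 TPM for ZT40 and 73.4 ± 11.3 TPM for ZT44. All 3 ZT36 libraries lay below the other 15, and the difference from the other time points was -3.93 in log2(TPM + 1), with a standard error of 0.31 and limma's adjusted p at 3.8e-11. Glyma.16G089000, on the plus strand of chromosome 16 from 11392112 to 11400072, had 27.2, 24.1 and 36.6 TPM at ZT36 and 433 ± 172 TPM at ZT28. It is 643326 bp from its member, and its difference was -2.44, with a standard error of 0.28 and limma's adjusted p at 6.6e-08. Its ZT36 and ZT40 libraries overlap, since ZT40 R had 29.9 TPM.

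Loci assembled on the opposite strand overlapped 19 members (9.50%) in at least 1 library, beside 6.47% of all expressed genes. They reached a mean of 1 TPM at a time point in 13 members (6.50%), beside 2.53% of all expressed genes. In 6 of these 13 the opposite strand was itself highest at ZT36, and in the others at ZT24 (2), ZT32 (1), ZT40 (2) or ZT44 (2). No such split is given for the other expressed genes, so nothing is read from it. By their own TPM, 32.4% of all expressed genes were highest at ZT36. The highest means on the opposite strand of the 13 members ran from 1.02 to 29.7 TPM. The library kit keeps strand, but the strand setting used to quantify the genes is not given in the sources used here, so reads of both strands may not be fully separated in these members.

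The 8 genes with an identifier in the study's accession list were set beside the profile of the members. Over the 18 libraries *GmLUX2*, a homologue of the *Arabidopsis* evening complex component LUX, had r = 0.95 with the mean standardised profile of the 200 members. Its paralog *GmLUX1* was also highest at ZT36 and had r = 0.62, at a low level of 1.50 ± 0.684 TPM at ZT36 and 1.02 ± 0.403 TPM at ZT32. *GmLUX2* had 10.8 ± 2.98 TPM at ZT36, with 2.11 ± 0.783 TPM before it at ZT32 (SD, n = 3). The 4 *GmLHY* genes, homologues of a dawn MYB factor, ran the other way, with r of -0.53 to -0.68 and their lowest means at ZT36. *GmPRR5d*, a pseudo-response regulator, had r = -0.85, with 0.524 ± 0.218 TPM at ZT36, and *GmPIF4*, a homologue of a growth-promoting bHLH factor, had r = -0.81, with 1.12 ± 0.375 TPM at ZT36. These correlations are over libraries that the genes share, and the members were chosen for their maximum at ZT36. *GmLUX2* met the same rule before it was left out, so its high r follows largely from that. The correlations describe phase only.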

How the data were processed

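RNA-seq of Ws82 leaves was used, 18 libraries in all. Reads were trimmed, aligned to Gmax_Wm82_a2_v1 with *HISAT2* 2.2.1 and quantified with *StringTie*, per the labels and the paper's methods. The deposited tables hold the TPM, the FPKM and the coverage that the authors computed for each annotated gene and assembled locus. Read counts are not part of them, so counting error is not given. Annotated genes were analysed by their deposited TPM. FPKM served for comparison, and depth was taken from the ratio of coverage to FPKM.

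The members and lists were chosen with earlier results of these data known. Values were analysed as log2(TPM + 1), which understates differences of genes with low TPM. Genes with a mean of at least 1 TPM at a time point were tested in R 4.3.3 by limma 3.58.1 (eBayes with trend, Benjamini-Hochberg, threshold 0.05, all libraries, no block). The p-values set the difference of ZT36 from the other time points against the spread between libraries of the same time point. Overlaps were found with bedtools 2.31.1, tables were built with Python 3.11.15 (numpy 2.4.6, pandas 2.3.3), and figures were drawn with matplotlib 3.10.9. The scripts were tested on simulated data.

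Because no file pairs identifiers with names, at most 2 identifiers of genes higher and 2 of genes lower at ZT36 are printed. They are the 2 members with the largest range and, chosen after their values were seen, the 2 neighbours with the largest fall. Other members are given by position, namely the 3 adjacent pairs with the largest range, the 3 members closest to the mean profile, and the widest of 2 shapes. The planned comparison with paralogs, the lists by annotated product and the promoter motifs needed names, proteins or sequences of this build and were not run. Deviations of same-lettered libraries had a median correlation of -0.013, and it was over 0.1 in 10 of 45 pairs. The level was less even between the letters. From ZT24 to ZT40, M was the highest of its 3 libraries in 51.8% to 71.5% of expressed genes, and at ZT44 in 16.1%.

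Results were recomputed with FPKM, with quantile normalization, after rescaling TPM without its 100 highest genes, with a pseudocount of 0.1, with the filter at 5 TPM or none, and without each library in turn. The limma fit was repeated with a replicate block and without the trend. Neighbours were also limited to 10 kb, the rule to the peak of the mean alone, and the second time point to cases where the replicates agreed.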

Additional observations from a re-analysis of the deposited data

How the results depend on the processing

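All 200 members met the rule in each of the 18 cases that left out 1 library, with a pseudocount of 0.1, with a filter of 5 TPM and without a filter, and 188 of 200 did with quantile normalization, 196 with TPM rescaled without the 100 highest genes and 198 with FPKM. The 200 of 200 are no sign of stability, since leaving out a library takes 1 value out of the condition on the peak, a smaller pseudocount keeps the order and widens the range, and the lowest member had 6.55 TPM at ZT36. Among the 200 widest there remained 138 members with a pseudocount of 0.1, 138 after rescaling, 168 with quantile normalization, 183 with FPKM, and 170 (without ZT36 M) to 198 without 1 library. The genes that met the rule numbered 1268 with a pseudocount of 0.1 and 1207 after rescaling, against 534. Rescaling raised the TPM of the remaining genes, and 45463 genes then passed the filter of 1 TPM, against 24620. It therefore also acts as a smaller pseudocount and a looser filter, and does not isolate the part of the 100 highest genes. Their number was 486 to 769 without 1 library. The median range of the members was 4.32 with a pseudocount of 0.1, 4.16 after rescaling and 3.11 with quantile normalization, against 3.26, and 3.14 to 3.43 without 1 library. ZT40 was second in 54.5% of the members with quantile normalization and in 48.0% where L, M and R had to agree, against 74.0%, and in 64.5% to 77.0% without 1 library. The range of Glyma.16G049000 was 6.07 with quantile normalization.

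In the limma contrast, 3897 genes were higher and 1747 lower among the 10139 left by a filter of 5 TPM, and 5241 higher and 4170 lower with quantile normalization. Without 1 library, 4094 to 9710 were higher and 2026 to 3229 lower. The lowest count of higher genes came without ZT36 M. Neighbours higher at ZT36 numbered 91 of 195 within 10 kb, 79 of 386 without a filter, and 90 to 177 without 1 library. Their percentage exceeded that of all genes, members included, in 27 of 27 alternatives, by 4.28 to 13.5 percentage points. The largest of these came from the limit to 10 kb, which takes a part of the same neighbours. All alternatives share these libraries, so they are not independent checks. With a replicate block, 8475 genes were higher, 2765 lower and 155 of the 370 neighbours higher. L, M and R are described as replicates, and no meaning of the letters beyond that was assumed. Best correlation with their own letter was found for 8 of 18 libraries. The comparison with paralogs was not run. Depth limits low values, above all at ZT44.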
